A study of Mus musculus with 8 samples.

Results

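Spp1 (osteopontin, ENSMUSG00000029304), Ibsp (bone sialoprotein, ENSMUSG00000029306), Dmp1 (dentin matrix protein, ENSMUSG00000029307) and Mepe (matrix extracellular phosphoglycoprotein, ENSMUSG00000053863) were chosen by symbol. They are 4 of the 32285 genes in each of the 8 single-cell count matrices. The cells came from the femurs and tibiae of 8 female mice, 1 library per mouse. Control mice carried floxed alleles of the SOXC transcription factor genes (Sox4fl/fl Sox11fl/fl Sox12fl/fl) and no Cre. SOXCOsxCre mice carried the same floxed alleles and the OsxCre transgene, which is active mainly in the osteoblast lineage and is switched off by doxycycline. Doxycycline was given until weaning, so that the SOXC genes were inactivated after that age. Each genotype was sampled at 7 and 13 weeks of age, with 2 mice per genotype and age. The paper describes the mice as pairs of mutant and control sisters, while the labels name no litters. Bones were scraped of periosteum, flushed of marrow, digested with collagenase and EDTA and depleted of haematopoietic cells before capture. The question was how the level of each gene ran from skeletal progenitors to osteocyte-like cells and in hypertrophic chondrocytes, and whether it differed between genotypes and ages.

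The 4 genes encode secreted, acidic, phosphorylated proteins of the small integrin-binding ligand, N-linked glycoprotein family, which bind calcium and hydroxyapatite and carry an RGD motif that integrins recognise. Osteopontin slows the growth of mineral crystals and binds integrins and Cd44, and it is made by many cells besides those of bone. Bone sialoprotein nucleates mineral and is known from osteoblasts and hypertrophic chondrocytes. Dmp1 is a marker of osteocytes that acts in mineralisation and phosphate balance. Mepe is made by late osteoblasts and osteocytes, and its acidic fragment, which the endopeptidase Phex can degrade, inhibits mineralisation.

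The genes lie side by side on chromosome 5 of GRCm38 (mm10), all on the plus strand. Their RefSeq gene bodies span chr5:104197575-104214102 for Dmp1, chr5:104299287-104311472 for Ibsp, chr5:104325329-104338611 for Mepe and chr5:104435111-104441053 for Spp1. The gaps are 85184 bases from Dmp1 to Ibsp, 13856 bases from Ibsp to Mepe and 96499 bases from Mepe to Spp1. Dspp, the family member of dentin, lies 17447 bases before Dmp1 (chr5:104170703-104180127) and was all but unread here, with 12 UMIs over all barcodes of the 8 libraries. The 170 bases before an annotated start of each gene (GRCm38.p6, plus strand, from RefSeq) are shown because the 4 neighbours are measured together below. Capitals mark 4 motifs. The RUNX core was searched as ACCACA on either strand, which reads TGTGGT where it lies on the other one. For a SOX core the letters were ACAAAG on either strand, reading CTTTGT when reversed. An inverted CCAAT box was searched on the gene's own strand as ATTGG, and so was a run resembling a TATA box, TTTAAA. No 2 of the matches in these windows overlapped.
Spp1, chr5:104434941-104435110: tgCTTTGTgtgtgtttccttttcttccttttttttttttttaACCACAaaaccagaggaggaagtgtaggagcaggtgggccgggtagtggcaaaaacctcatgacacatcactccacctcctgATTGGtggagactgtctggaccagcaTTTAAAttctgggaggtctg
Ibsp, chr5:104299117-104299286: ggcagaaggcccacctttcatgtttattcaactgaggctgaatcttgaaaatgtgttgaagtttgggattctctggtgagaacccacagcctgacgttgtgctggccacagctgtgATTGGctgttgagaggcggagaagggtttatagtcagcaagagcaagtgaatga
Dmp1, chr5:104202447-104202616: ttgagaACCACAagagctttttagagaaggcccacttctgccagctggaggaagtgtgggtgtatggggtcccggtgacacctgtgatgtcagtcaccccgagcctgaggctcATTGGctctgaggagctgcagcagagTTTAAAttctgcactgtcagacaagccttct
Mepe, chr5:104325159-104325328: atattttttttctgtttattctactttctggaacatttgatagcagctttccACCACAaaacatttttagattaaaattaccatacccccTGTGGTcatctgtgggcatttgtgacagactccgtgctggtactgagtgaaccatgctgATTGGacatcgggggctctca
An inverted CCAAT box stood in all 4 of these windows, at 46 to 42 bases before the start in Spp1, 54 to 50 in Ibsp, 57 to 53 in Dmp1 and 21 to 17 in Mepe. Over the 32851 mouse promoters of the same table, each 300 bases long, 22.1% held ATTGG on the gene's strand. RUNX letters stood in the Spp1 window, once in the Dmp1 window and at 2 places in the Mepe window, and in 16.8% of all promoters. SOX letters were found in the Spp1 window alone, and in 18.7% of all promoters. TTTAAA stood before the start in Spp1 and Dmp1 and is in 13.2% of all promoters. Spp1 and Dmp1 each have 2 promoters in the table. The Dmp1 window precedes the second of its annotated starts, which lies inside the gene body given above, and the Spp1 window the first, chosen with the matches in both windows of each gene known. In the 250 bases before the other start, Dmp1 had 1 match, an inverted CCAAT box at 101 to 97 bases before the start, and Spp1 had 1, SOX letters at 243 to 238. These matches describe letters, not bound sites.

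The libraries held 12086 to 14151 barcodes each, of which 6410 to 8753 were kept as cells, 59629 in all. Replicate 1 of every group was sequenced deeper (median 11294 to 12841.5 UMIs per kept cell) than replicate 2 (6917 to 8052), so differences between genotypes are also given within each pair of 1 age and 1 replicate number. Any 2 libraries shared 10 to 25 cell barcodes. Cell types were named from marker genes that exclude the 4 genes, and 47406 of the cells (79.5%) were named. The osteoblast-like cells (OB-like, 25753) comprised early OB-like cells (1102), clusters that reached the stress list (8928, stress OB-like), the interferon list (752, interferon OB-like) and the osteocyte list (1908, osteocyte-like), and a remainder (13063, other OB-like) that reached none of these lists. Of the stress OB-like cells, 1785 belonged to a cluster with 3 of the 11 stress markers, led by collagen genes, that scored higher for the osteocyte list but had 1 of its markers. No cluster reached the list of matrix-forming osteoblasts, and the other OB-like cells stand in its place in the order below. Of the osteocyte-like cells, 1338 belonged to a cluster in which 9 of the 14 osteocyte markers and also 9 of the 11 stress markers passed as markers. Of the 14 osteocyte markers, 13 had a UMI in osteocyte-like cells, and Fgf23 was at 0. Sox4 was at 270 to 325 CPM in osteocyte-like cells of controls and at 62.5 to 94.6 CPM in SOXCOsxCre mice (log2 difference -1.75, adjusted p = 2.3e-05, edgeR quasi-likelihood test), where CPM is the UMIs of a gene per 1000000 UMIs of a type's cells in 1 mouse. Sox4 was lower by the same test in Lepr+ MSC-like, Lepr+ OP-like, preOB-like, early OB-like, other OB-like, stress OB-like and interferon OB-like cells (-1.69 to -1.26), but in GPC-like (-0.68, adjusted p = 1.0) and hypertrophic GPC-like cells (-0.11, adjusted p = 1.0) it did not pass.

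By mean CPM in controls Spp1 was highest in preosteoblasts and Dmp1 in osteocyte-like cells. Ibsp had its highest means in osteocyte-like cells and hypertrophic chondrocytes. It already stood at a mean of 2864 CPM in Lepr+ MSC-like cells, whose range overlapped that of preosteoblasts (4520 CPM). Mepe was rare in every type and had its highest mean levels in early OB-like and osteocyte-like cells. In kept cells Spp1 had 924395 UMIs, Ibsp 3298758, Dmp1 61403 and Mepe 2528. The lineage was read as Lepr+ mesenchymal stromal cells (Lepr+ MSC-like, 3826 cells), Lepr+ osteoprogenitors (Lepr+ OP-like, 2337), preosteoblasts (preOB-like, 2298), early OB-like, other OB-like and osteocyte-like cells, and as growth plate chondrocytes (GPC-like, 2011) to hypertrophic chondrocytes (hypertrophic GPC-like, 2410). Values of 4 mice are given in the order 7 weeks replicate 1, 7 weeks replicate 2, 13 weeks replicate 1, 13 weeks replicate 2. The change between neighbouring stages was taken within each mouse on log2(CPM + 1) and tested over the 8 mice by an exact two-sided sign-flip permutation test, whose smallest possible p is 0.0078. In all, 24 steps were tested, and 19 had an unadjusted p under 0.05, as many as after Benjamini-Hochberg adjustment.

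**Figure D1:**
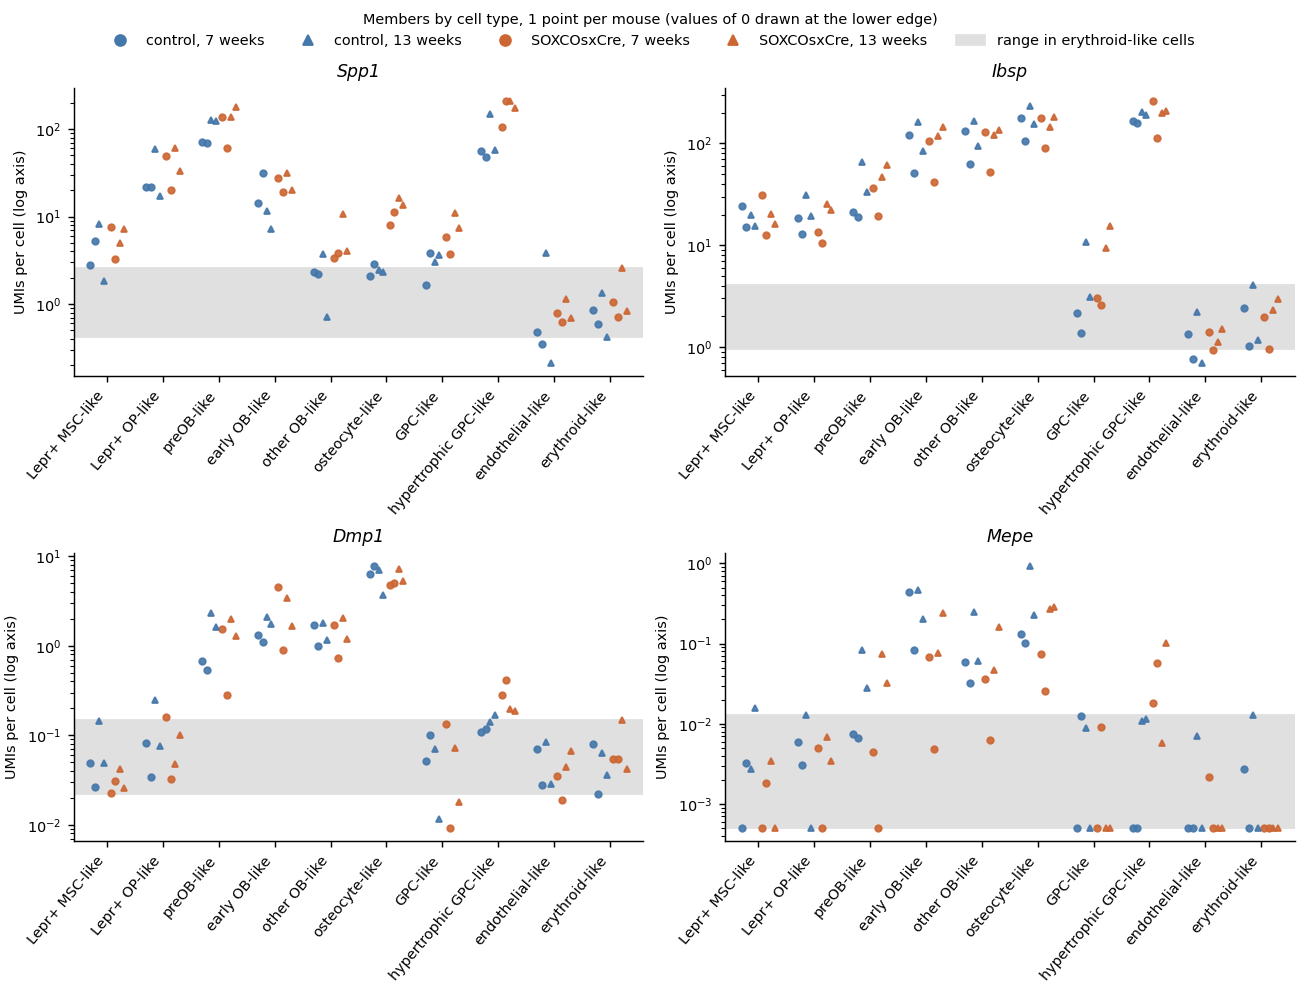
UMIs per cell of Spp1, Ibsp, Dmp1 and Mepe (log axis) in 10 cell types, 1 point per mouse, blue for control and orange for SOXCOsxCre; the grey band is the range over 8 mice in erythroid-like cells and a 0 is drawn at the lower edge. Spp1 peaks in preOB-like and hypertrophic GPC-like cells, Dmp1 in osteocyte-like cells, and the Mepe points lie below 1 UMI per cell in each type.

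Along the osteoblast lineage Spp1 had its highest levels, in CPM, at the preosteoblast stage. In control preOB-like cells it stood at 7509, 11086, 12154 and 24034 CPM, and in control Lepr+ MSC-like cells at 368, 944, 868 and 411 CPM. The 2 types did not overlap. From Lepr+ MSC-like to Lepr+ OP-like cells Spp1 rose by 2.59 on the log2 scale (mean 831 to 4912 CPM over the 8 mice, higher in 8 of 8, exact p = 0.0078), and from there to preOB-like cells by 1.73 (to 16823 CPM, 8 of 8, exact p = 0.0078). Summed Spp1 then fell by 3.32 on the log2 scale to early OB-like cells (1744 CPM) and by 3.01 to other OB-like cells (229 CPM), each in all 8 mice (exact p = 0.0078). The last step, to osteocyte-like cells, was 0.83 (497 CPM, higher in 6 of 8 mice) and did not pass the test (exact p = 0.055), but passed without control 13 weeks replicate 1 (1.05), with cells thinned (1.48), without integration (1.28), with doublets kept (1.09) and with a 5% mitochondrial limit (1.70). In the order of the 17 named types in controls, preOB-like cells led (mean 13696 CPM), followed by proliferating preOB-like (6563), hypertrophic GPC-like (4143) and Lepr+ OP-like cells (3878). Each type in that order overlapped the next, so that neighbours cannot be ranked.

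Ibsp changed less along the osteoblast lineage than Spp1. Control osteocyte-like cells held 8447, 9149, 10160 and 13150 CPM and control Lepr+ OP-like cells 2024, 2326, 3182 and 3578 CPM. The Lepr+ OP-like values were below those of osteocyte-like cells in every mouse. The first step, out of Lepr+ MSC-like cells, was -0.23 (higher in 4 of 8 mice, exact p = 0.38). It rose by 0.89 to preOB-like, by 0.68 to early OB-like and by 0.56 from other OB-like to osteocyte-like cells, and fell by 0.29 on the log2 scale from early OB-like to other OB-like cells, each the same way in all 8 mice (exact p = 0.0078). These are steps in summed UMIs. The median preOB-like cell of the 7-week controls held 6.43 and 5.28 Ibsp UMIs per 10000, against 13.1 and 14.6 in Lepr+ OP-like cells. SOXCOsxCre 7 weeks replicate 2 went the same way (10.4 against 13.3), and replicate 1 the other (13.1 against 10.4). At 13 weeks the preOB-like median was the higher in each mouse (38.7 to 64.7 against 19.2 to 26.1). At 7 weeks the 10% of preOB-like cells highest in Ibsp held 56.0 to 74.6% of it. The step from preOB-like to early OB-like cells turned to -0.072 without integration. In the control order osteocyte-like (mean 10226 CPM), hypertrophic GPC-like (10016), early OB-like (8316) and other OB-like cells (6793) came first and overlapped. A clear break lay between Lepr+ OP-like cells (2777 CPM), which were above pericyte-like (284 CPM), GPC-like (241 CPM) and endothelial-like cells (180 CPM) in every control mouse. Among Sca1+ MSC-like cells, 519 in all, 1 library stood apart for Ibsp: SOXCOsxCre 13 weeks replicate 2 had 34673 CPM, against 449 to 4464 CPM in the other 7 mice.

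Summed Dmp1 rose at 2 points, on entry to the preosteoblast stage and in osteocyte-like cells. A minority of the cells held most of it. The median preOB-like cell held 0 Dmp1 UMIs in each mouse, and the 10% of cells highest in Dmp1 held 74.1 to 100% of it. In osteocyte-like cells the median was 0 to 0.665 UMIs per 10000, by mouse. The highest 10% there held 65.3 to 77.4%, against 62.0 to 72.9% in other OB-like cells. In control osteocyte-like cells it stood at 299, 667, 308 and 308 CPM and in control other OB-like cells at 77.3, 82.6, 81.9 and 104 CPM. All 4 osteocyte-like values were above those of other OB-like and of stress OB-like cells, the next type in order, while single 13-week values of preOB-like (314 CPM) and interferon OB-like cells (328 CPM) reached into their range. From Lepr+ OP-like to preOB-like cells Dmp1 rose by 3.62 on the log2 scale (12.9 to 179 CPM over the 8 mice, 8 of 8, exact p = 0.0078). Between preOB-like and early OB-like cells the mean change was 0.00 (exact p = 1.0), and from early OB-like to other OB-like cells Dmp1 fell by 0.87 on the log2 scale in all 8 mice. The step to osteocyte-like cells was a rise of 2.10 (83.7 to 382 CPM, 8 of 8, exact p = 0.0078). Stress OB-like (204 CPM), interferon OB-like (198), preOB-like (173) and early OB-like cells (136) followed in the control order and overlapped one another.

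Mepe gave few counts in any type. Control osteocyte-like cells held 28, 27, 199 and 46 UMIs, or 6.29, 8.62, 40.5 and 19.4 CPM. In control early OB-like cells the values were 30.1, 9.41, 27.8 and 24.2 CPM. These 2 types led the control order and overlapped. Over the 8 mice Mepe rose by 1.22 from Lepr+ OP-like to preOB-like cells (exact p = 0.031), by 1.68 to early OB-like cells (7 of 8 mice, exact p = 0.023) and by 1.33 from other OB-like to osteocyte-like cells (8 of 8, exact p = 0.0078), and it fell by 1.32 on the log2 scale between early OB-like and other OB-like cells in all 8 mice (exact p = 0.0078). The first 2 of these rises were fragile: on leaving out 1 mouse, the first kept its call without SOXCOsxCre 7 weeks replicate 1 or 2 and lost its call without any of the other 6 mice (1.00 to 1.37, adjusted exact p from 0.075 to 0.079), and the second kept it without SOXCOsxCre 7 weeks replicate 2 or 13 weeks replicate 1 and lost it without any of the other 6 (1.33 to 1.68, adjusted exact p from 0.062 to 0.066). With cells thinned to 2000 UMIs neither passed, nor did the fall to other OB-like cells (-0.84, adjusted exact p = 0.22). On 7 mice the smallest possible exact p of the sign-flip test is 0.016, against 0.0078 on 8. A call lost on leaving out 1 mouse therefore does not by itself show that a step rests on that mouse. The change from Lepr+ MSC-like to Lepr+ OP-like cells was 0.05 (exact p = 0.91), with both types near 0.

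Because free RNA in the droplets gives UMIs in cells that do not express a gene, the 4 genes were also read in erythroid-like cells (1106), which should lack them, and in endothelial-like cells (3386). Erythroid-like cells held a mean of 1.05 Spp1, 2.10 Ibsp, 0.0628 Dmp1 and 0.00195 Mepe UMIs per cell, and endothelial-like cells 1.01, 1.25, 0.0470 and 0.00116. Endothelial-like cells of control 13 weeks replicate 1 stood apart for Spp1, at 427 CPM against 51.2 to 207 CPM in the other 7 mice. Of 64 pairs of a gene and a type, 38 were above erythroid-like cells by the exact two-sided sign-flip permutation test over the 8 mice, and 6 were below, after adjustment over the 64. Spp1 in preOB-like cells, at a mean of 113 UMIs per cell, and Ibsp in osteocyte-like cells, at 159, were far above that background. The lower Spp1 of other OB-like (3.87 UMIs per cell) and osteocyte-like cells (7.37) was also above it in each of the 8 mice, with lowest ratios of 1.73 and 1.84. Dmp1 in Lepr+ MSC-like cells (0.0485 UMIs per cell), Lepr+ OP-like cells (0.0974) and GPC-like cells (0.0581) did not pass the test against the erythroid-like level, and the Dmp1 step between the first 2 types (0.68, 6 of 8 mice, exact p = 0.031) is a change between such values, whose call was kept without SOXCOsxCre 7 weeks replicate 2 or 13 weeks replicate 1 and lost without any of the other 6 mice (0.46 to 0.73). The smallest possible exact p of that step test on 7 mice is 0.016, so such a loss alone does not show dependence on 1 mouse. Mepe was above background in early OB-like (0.200 UMIs per cell), other OB-like (0.0814) and osteocyte-like cells (0.256), and in preOB-like cells (0.0296) in 7 of 8 mice.

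Hypertrophic chondrocytes held far more Spp1 and Ibsp than the other growth plate chondrocytes. In control hypertrophic GPC-like cells Ibsp stood at 5672, 9394, 9601 and 15398 CPM, against 80.9, 91.5, 536 and 257 CPM in GPC-like cells. The 2 types did not overlap. Over the 8 mice Ibsp rose by 5.40 on the log2 scale from GPC-like to hypertrophic GPC-like cells (372 to 10801 CPM) and Spp1 by 4.63 (295 to 7878 CPM), each in 8 of 8 mice (exact p = 0.0078). Per cell that was a mean of 126.5 Spp1 and 187.5 Ibsp UMIs, and the type was above erythroid-like cells for both. A minority of the cells carried the Spp1. The 734 of 2410 cells with at least 10 Spp1 UMIs per 10000 held 97.4 to 99.2% of it in controls. In SOXCOsxCre mice such cells held 98.2 to 99.7%. The median cell held 0 to 2.09 Spp1 UMIs per 10000, by mouse, against 0 to 0.783 in GPC-like cells. Dmp1 rose by 1.74 (2.83 to 12.6 CPM, 8 of 8, exact p = 0.0078) but stayed at 0.202 UMIs per cell, above erythroid-like cells in 8 of 8 mice with a lowest ratio of 1.33. For Mepe the change was 0.78 (exact p = 0.11; 1.02, past the threshold, without control 7 weeks replicate 2), and its 8 libraries held 0, 0, 4 and 4 UMIs in controls and 3, 15, 2 and 63 in SOXCOsxCre mice. Pooled, mutants had 8.69 times the control CPM (exact 95% interval 4.21 to 20.8, counting error only) and 3.02 times (1.27 to 7.92) without SOXCOsxCre 13 weeks replicate 2, and edgeR made no call (adjusted p = 1.0). Naming these cells left little margin. The larger of the 2 clusters, with 1773 cells and a median of 14045 CPM of Col10a1, the collagen that marks hypertrophy, scored 6.46 for the hypertrophic list and 6.43 for the growth plate list. The 2 GPC-like clusters scored 7.04 against 4.13 and 6.97 against 3.6. With a 5% limit on mitochondrial UMIs instead of 10%, a cluster of 1048 cells with a median Spp1 of 8563 CPM scored 6.41 for the growth plate list and 6.40 for the hypertrophic one and was named GPC-like, and the Spp1 step became -0.47 and the Dmp1 step -1.34.

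Between genotypes, Spp1 was the member that differed most clearly, being higher in SOXCOsxCre mice in osteocyte-like cells and in interferon OB-like cells, and Mepe was lower in early OB-like cells. No call was made for Ibsp or Dmp1 in the 11 types described here. Counts were summed per mouse and type and tested over all genes by edgeR's quasi-likelihood test, averaging the difference over both ages, with Benjamini-Hochberg adjustment, and 3 of 40 tests of the 4 genes passed an adjusted p of 0.05. With the pair of same-numbered mice as a block, 13 of the 40 passed. The pairing was taken from these same data, so a pass with the block alone is no independent support. Without the block, the share of all tested genes called was 1.7% in osteocyte-like, 0.385% in interferon OB-like, 0.579% in early OB-like, 1.05% in other OB-like and 0.918% in stress OB-like cells, and 1.42% in all OB-like cells pooled. In preOB-like cells it was 0.675%, among Lepr+ OP-like cells 0.779% and among Lepr+ MSC-like cells 0.183%. In GPC-like and hypertrophic GPC-like cells edgeR called 0% of the genes, with 210 and 497 genes at an unadjusted p under 0.05 and 4 and 7 genes called by DESeq2. With the block the shares were 6.89% in osteocyte-like, 1.15% in interferon OB-like, 2.48% in early OB-like, 7.35% in other OB-like and 7.19% in stress OB-like cells, and 8.26% in all OB-like cells pooled. They were 2.81% in preOB-like, 3.62% in Lepr+ OP-like, 1.12% in Lepr+ MSC-like and 0.154% in hypertrophic GPC-like cells, and in GPC-like cells edgeR again called 0%, with 240 genes at an unadjusted p under 0.05.

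In osteocyte-like cells Spp1 stood at 97.8, 245, 108 and 198 CPM in controls and at 317, 1121, 830 and 1059 CPM in SOXCOsxCre mice. Every mutant value was above every control value. The means were 162 ± 71.0 and 832 ± 366 CPM (SD, n = 4 each), and the fitted log2 difference was 2.43 ± 0.32 (SE, adjusted p = 0.00087), or 5.40-fold. Within the 4 pairs of 1 age and number the differences were 1.69, 2.19, 2.93 and 2.41. By age the difference was 2.14 ± 0.45 at 7 weeks (adjusted p = 0.070) and 2.73 ± 0.46 at 13 weeks (adjusted p = 0.023), and the test of that difference between ages gave 0.59 ± 0.62 (adjusted p = 1.0). Leaving out any 1 mouse kept the call, with values from 1.90 to 2.78.

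Spp1 was higher in SOXCOsxCre mice in 4 of 4 pairs in each of 3 blood cell types of the same libraries, but passed the test there with the pair as a block and not without it. In erythroid-like cells it stood at 23.8, 25.3, 39.1 and 14.6 CPM in controls and 32.6, 34.6, 74.5 and 31.1 CPM in SOXCOsxCre mice, a difference of 0.78 ± 0.31 that did not pass the test (adjusted p = 1.0) and did with the pair as a block (0.74, adjusted p = 0.0058). The groups overlapped. In haematopoietic progenitor-like cells the difference was 0.91 (adjusted p = 0.77; 0.93 and 0.00046 with the block) and in proliferating haematopoietic-like cells 1.70 (0.31; 1.81 and 1.5e-05 with the block). Endothelial-like cells differed by 0.28 (adjusted p = 1.0; 0.49 and 0.99 with the block), higher in 3 of 4 pairs. The Spp1 of osteocyte-like cells was 1.84 to 5.64 times the erythroid-like level per cell in controls and 6.23 to 16.3 times in SOXCOsxCre mice, which do not overlap. With the erythroid-like level taken off, the osteocyte-like difference was 2.80 (adjusted p = 0.0017).

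A small number of cells held most of this Spp1. Counting a cell as Spp1-rich from 10 Spp1 UMIs per 10000, 20 of 894 control and 73 of 1014 SOXCOsxCre osteocyte-like cells were rich. That was 0.476 to 3.26% of the cells in control mice and 3.53 to 8.95% in SOXCOsxCre mice, with no overlap. The rich cells held 53.6 to 84.1% of the type's Spp1 UMIs in controls and 84.8 to 93.8% in mutants. The limit is a cut in a range, with 24 further cells between 5 and 10 UMIs per 10000 and 23 of the 93 rich cells between 10 and 20. Among erythroid-like cells 1 of 1106 was rich. Without the tenth of osteocyte-like cells highest in Spp1, the level was 16.6 to 38.9 CPM in controls and 34.4 to 87.5 CPM in SOXCOsxCre mice, which overlap, with means of 24.9 and 61.9 CPM and higher values in mutants in 4 of 4 pairs. Erythroid-like cells trimmed in the same way held 8.46 to 32.4 CPM in controls and 23.8 to 51.7 CPM in SOXCOsxCre mice. Their means were 17.9 and 31.5 CPM, with mutants also higher in 4 of 4 pairs. The part of free RNA in the level of the remaining osteocyte-like cells was not tested. The Spp1-rich osteocyte-like cells held more Dmp1 and Mepe, while the osteocyte markers as a list were higher in the rich cells of 3 of 8 mice. The median over mice was 1690 CPM of Dmp1 in rich cells against 304 CPM in the rest, and 63.5 against 6.07 CPM of Mepe, each higher in 7 of 8 mice; the exception, control 7 weeks replicate 1, had 1 rich cell. Ibsp was higher in the rich cells of 2 of 8 mice. In other OB-like cells Dmp1 was likewise higher in the rich cells of 7 of 8 mice (median 229.9 against 81.6 CPM), and Mepe in those of 2 of 8. In those rich cells the osteoclast and macrophage list was higher in 8 of 8 mice (median 205 against 141 CPM). Most of that list was Ctsk (180.1 against 127 CPM, 8 of 8), which preOB-like cells held at 169 to 249 CPM. The other members of the list were not read singly in the rich cells. The preosteoblast (1764 against 1340 CPM) and Lepr+ OP lists (293 against 204) were also higher in 8 of 8 mice. The osteocyte list was higher in 0 of 8 (1050.2 against 1301 CPM). The part of these markers was not tested. Over the osteocyte-like cells, the summed markers of osteoblasts were at a median of 1620 UMIs per 10000 in rich cells and 1991 in the rest, those of osteocytes at 27.2 and 29.1, those of preosteoblasts at 14.5 and 11.3, those of Lepr+ OP-like cells at 5.11 and 3.37, those of hypertrophic chondrocytes at 1.09 and 0.857 and those of osteoclasts and macrophages at 1.32 and 0.942. The median of Mepe was 0 in both, with a Mepe UMI in 12.9% of rich osteocyte-like cells and 6.39% of the rest. For Dmp1 those shares were 76.3% and 45.7%. Per mouse, Lepr+ OP markers were higher in the rich osteocyte-like cells of 7 of 8 mice, and preosteoblast and hypertrophic markers in those of 6 of 8. These figures describe cells picked by their Spp1, and no test was made between them.

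**Figure D2:**
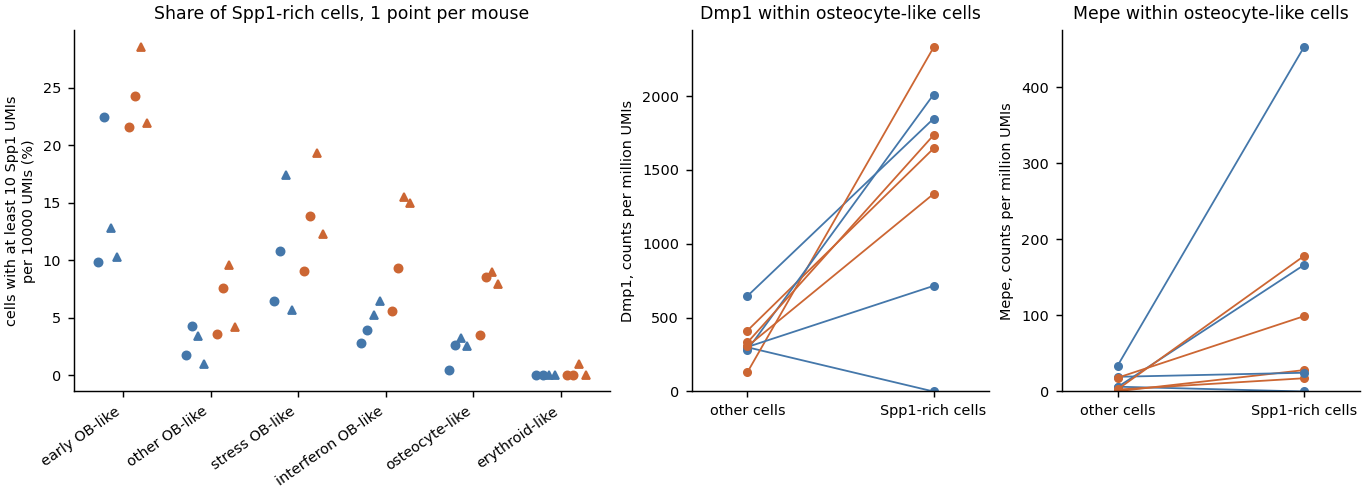
Share of Spp1-rich cells (at least 10 Spp1 UMIs per 10000, in percent) per mouse in 6 cell types, and CPM of Dmp1 and Mepe in Spp1-rich and other osteocyte-like cells with a line per mouse; blue is control, orange SOXCOsxCre, and in the left panel circles are 7 weeks and triangles 13 weeks. In osteocyte-like cells the shares are 0.476 to 3.26% in controls and 3.53 to 8.95% in SOXCOsxCre mice, and Dmp1 and Mepe are higher in the rich cells of 7 of 8 mice. A Mepe UMI was in 12.9% of these rich cells.

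Other markers moved with genotype in the osteocyte-like cells. Summed osteoclast and macrophage markers were 71.5 to 106 CPM in controls and 109 to 156 CPM in SOXCOsxCre mice, higher in 4 of 4 pairs, most of it Ctsk, the osteoclast cathepsin (62.5 to 96.2 and 98.1 to 135 CPM). The defining osteoclast and macrophage genes Oscar, Ocstamp and Csf1r were at most 0.225 CPM in controls, where Adgre1 and C1qb were at 0. In SOXCOsxCre mice Oscar and Ocstamp were at 0 and the other 3 at most 0.612 CPM. Atp6v0d2, an osteoclast proton pump subunit, and the macrophage gene C1qa were at most 0.203 and 0.319 CPM in controls and 0.268 and 0.306 CPM in mutants, and Cd68 was at 2.25 to 4.64 CPM in controls and 1.58 to 3.22 CPM in mutants. Acp5, the osteoclast acid phosphatase, was at 3.80 to 9.58 CPM in controls and 7.89 to 19.9 CPM in SOXCOsxCre mice, and Mmp9 at most 0.958 and 5.51 CPM. Summed preosteoblast markers were 914 to 1215 CPM in controls and 1090 to 1443 CPM in SOXCOsxCre mice, also higher in 4 of 4 pairs, whereas growth plate chondrocyte markers (3309 to 5893 against 1650 to 3828 CPM) and stress genes (5369 to 7272 against 4234 to 6135 CPM) were lower in 4 of 4. The summed osteoblast markers were higher in 4 of 4 pairs too (161002 to 220837 against 171828 to 240021 CPM). Their part in the Spp1 difference was not tested.

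In interferon OB-like cells Spp1 stood at 93.8, 127, 244 and 1243 CPM in controls and at 268, 744, 1742 and 2024 CPM in SOXCOsxCre mice. The groups overlapped through control 13 weeks replicate 2. The difference was 1.88 ± 0.33 (adjusted p = 0.0091), or 3.67-fold, with 1.51, 2.54, 2.83 and 0.70 within the pairs. Few cells held most of this Spp1: 2 to 7 Spp1-rich cells per control library held 56.4 to 97.0% of the type's Spp1 UMIs, and 3 to 18 per SOXCOsxCre library held 75.7 to 94.8%. It lost its call under DESeq2 (1.88, adjusted p = 0.28) and under the 5% mitochondrial limit (0.57, adjusted p = 0.94). The other types had positive fitted differences that did not pass: 1.39 ± 0.37 in other OB-like (adjusted p = 0.14), 0.79 ± 0.27 in stress OB-like (0.27), 0.70 ± 0.25 in early OB-like (0.41), 0.57 ± 0.27 in preOB-like (0.60), 0.61 ± 0.22 in Lepr+ OP-like (0.37) and 0.65 ± 0.31 in Lepr+ MSC-like cells (0.73). Without control 7 weeks replicate 2 the early OB-like value was 1.30 and passed (adjusted p = 0.00083), and by age it was -0.12 at 7 weeks and 1.51 at 13 weeks. Without SOXCOsxCre 7 weeks replicate 1 the other OB-like value was 1.65 and passed (adjusted p = 0.048). With the pair as a block Spp1 passed in Lepr+ OP-like (0.66, adjusted p = 0.015), early OB-like (0.82), other OB-like (1.38), stress OB-like (0.81) and pooled OB-like cells (1.10, adjusted p = 3.4e-05). Within other, stress and pooled OB-like cells the osteoblast, preosteoblast and osteoclast and macrophage lists were higher in mutants in 4 of 4 pairs. The growth plate chondrocyte and osteocyte lists were lower in 4 of 4 there, and the part of these lists was not tested. In preOB-like cells SOXCOsxCre mice held 13768, 14085, 18618 and 33333 CPM of Spp1 beside 7509, 11086, 12154 and 24034 CPM in controls. Those groups overlapped, and the pairs differed by 0.87, 0.35, 0.62 and 0.47.

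**Figure D3:**
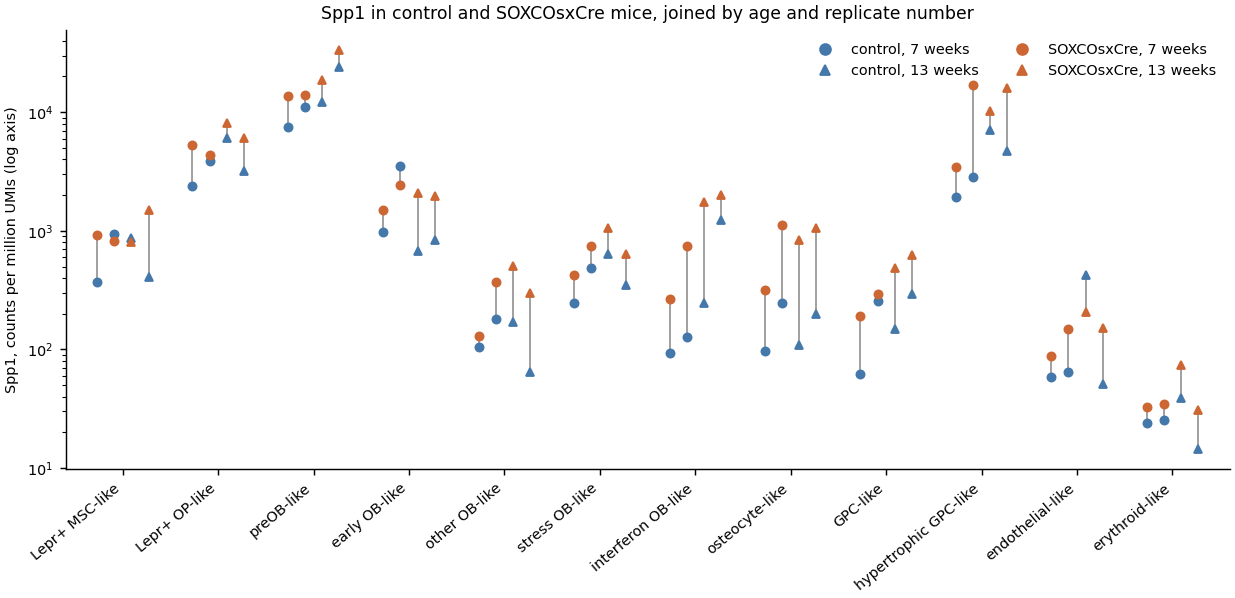
Spp1 CPM (log axis) in 12 cell types for the 4 control and 4 SOXCOsxCre mice, with lines joining control and mutant of the same age and replicate number. In osteocyte-like cells the 4 mutant points (317 to 1121 CPM) lie above the 4 control points (97.8 to 245 CPM).

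In hypertrophic GPC-like cells Spp1 was 1918, 2839, 7081 and 4735 CPM in controls and 3449, 16812, 10222 and 15968 CPM in SOXCOsxCre mice. The groups overlapped. The difference of 1.62 ± 0.37 did not pass (adjusted p = 0.50), and it passed with the pair as a block (1.42, adjusted p = 0.023). It rested on single mice: without SOXCOsxCre 7 weeks replicate 1 it was 1.98 (adjusted p = 0.0016), and without SOXCOsxCre 7 weeks replicate 2 it was 0.84. In these cells Sox4, 1 of the genes targeted for deletion, was at 25.3, 39.6, 8.64 and 21.6 CPM in controls and at 22.2, 54.4, 3.36 and 17.8 CPM in SOXCOsxCre mice, and Sox12 at 0.768 to 2.16 and 0.731 to 2.10 CPM. Both overlapped between genotypes. Dmp1 in the same cells differed by 1.24 ± 0.39 (adjusted p = 1.0; 1.14 and adjusted p = 0.027 with the block), on 15 to 117 UMIs per library.

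Ibsp passed the test in none of these types, and in proliferating preOB-like cells (309) it passed with the block. There it stood at 1447, 1259, 5433 and 7389 CPM in controls and 6334, 2521, 12876 and 11700 CPM in SOXCOsxCre mice. The groups overlapped, and the difference was 1.30 ± 0.27 (adjusted p = 0.26; 1.23 and 0.029 with the block), where 0.0276% of the tested genes were called without the block and 0.138% with it. In osteocyte-like cells SOXCOsxCre mice held 7031, 9007, 7400 and 14052 CPM beside 8447, 9149, 10160 and 13150 CPM in controls, a difference of -0.05 ± 0.18. The groups overlapped throughout. In preOB-like cells the values were 2236, 3000, 6286 and 6556 CPM in controls and 3656, 4492, 6375 and 11648 CPM in mutants, a difference of 0.57 ± 0.23 (adjusted p = 0.45). Dmp1 in osteocyte-like cells was 299, 667, 308 and 308 CPM in controls and 190, 510, 370 and 406 CPM in SOXCOsxCre mice. The difference was 0.01 ± 0.24, with a range of 2 SE either side from -0.48 to 0.49, and the pairs ran in both directions. With the pair as a block Dmp1 passed in stress OB-like cells, where it was lower (-0.37, adjusted p = 0.0032), and in early OB-like cells, where it was higher (0.59, adjusted p = 0.011).

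Mepe in early OB-like cells stood at 30.1, 9.41, 27.8 and 24.2 CPM in controls (27, 9, 85 and 26 UMIs) and at 3.71, 0.610, 5.08 and 23.9 CPM in SOXCOsxCre mice (7, 1, 15 and 30 UMIs). SOXCOsxCre 13 weeks replicate 2 lay among the controls and the other 3 mutants below all of them. The difference was -2.02 ± 0.46 (adjusted p = 0.045), and it lost its call without control 7 weeks replicate 1 (-1.49, adjusted p = 0.53), SOXCOsxCre 7 weeks replicate 2 (-1.65, 0.074), control 13 weeks replicate 1 (-1.94, 0.14) or SOXCOsxCre 13 weeks replicate 1 (-1.53, 0.10). It also lost it under DESeq2 (-1.93, adjusted p = 0.85) and with the 5% mitochondrial limit (-1.78, 0.052). In osteocyte-like cells Mepe was 6.29, 8.62, 40.5 and 19.4 CPM in controls and 2.94, 2.53, 13.7 and 22.3 CPM in SOXCOsxCre mice. That difference, -1.01 ± 0.28, did not pass (adjusted p = 0.089) and did with the block (-0.99, adjusted p = 0.014) and without control 13 weeks replicate 2 (-1.21, adjusted p = 0.015). In early OB-like cells the summed preosteoblast markers were lower in SOXCOsxCre mice in 4 of 4 pairs (3044 to 4066 against 2826 to 3453 CPM) and the osteoclast and macrophage markers higher in 4 of 4 (157 to 233 against 191 to 271 CPM). Single members of the osteoclast and macrophage list were not set out for these cells. The osteocyte markers were also lower in 4 of 4 pairs (1206 to 1978 against 1146 to 1573 CPM) and the osteoblast markers higher in 4 of 4 (122999 to 163347 against 141459 to 199144 CPM), and the part of these lists was not tested.

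**Figure D4:**
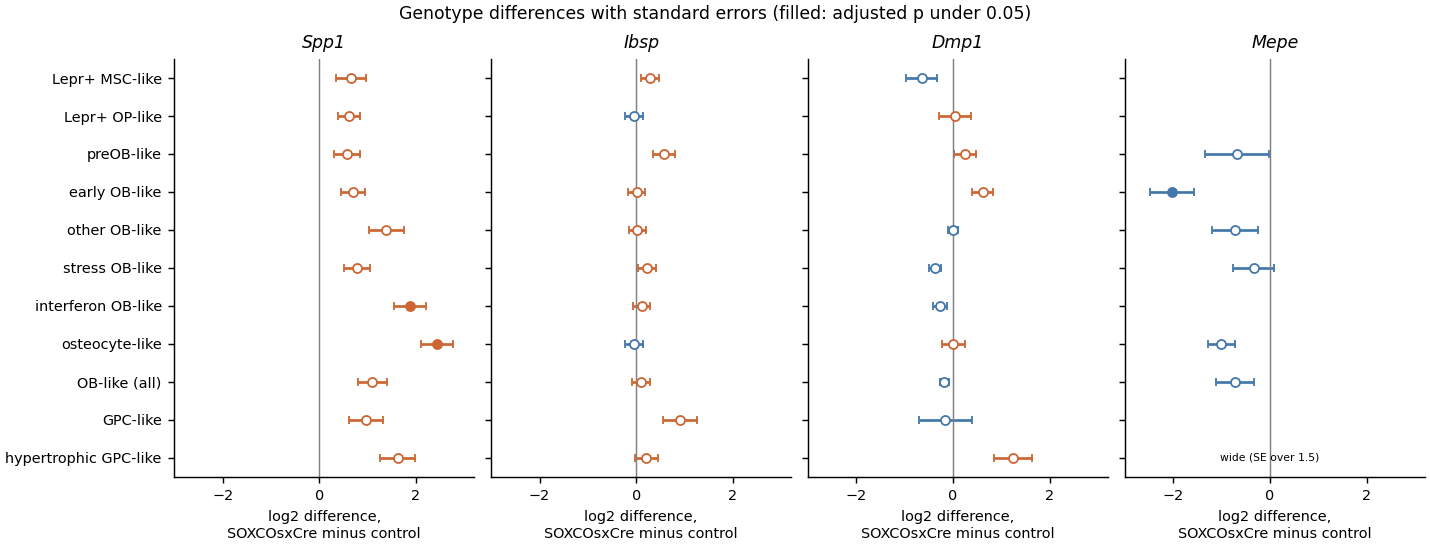
Fitted log2 differences, SOXCOsxCre minus control, of the 4 genes by cell type with their SE; filled points have an adjusted p under 0.05 over all genes, and the Mepe value in hypertrophic GPC-like cells is not drawn, as its SE is over 1.5 and the 4 controls held 8 UMIs in all. Orange marks a difference above 0 and blue one below 0, and Mepe has no point in types where its counts were too low to test. Spp1 lies above 0 in all 11 types and is filled in osteocyte-like and interferon OB-like cells, and Mepe is filled in early OB-like cells.

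With age, each difference of the 4 genes that passed the test in these 11 types was a rise from 7 to 13 weeks. By the same edgeR test, averaging over both genotypes, 10 of 40 tests passed, 1 of them Mepe in preOB-like cells, which was near 0 at 7 weeks. That gene entered the test there through the 13-week libraries alone, so its pass is no support for a rise. Beside that, 2.27% of all tested genes were called in preOB-like, 0.949% in Lepr+ OP-like, 0.358% in Lepr+ MSC-like, 2.4% in GPC-like and 8.27% in hypertrophic GPC-like cells. In the osteoblast-like types the shares were 1.25% in early OB-like, 1.52% in other OB-like, 1% in stress OB-like, 0.832% in interferon OB-like and 0.428% in osteocyte-like cells, and 1.9% in all OB-like cells pooled. Age could not be fitted with the pair as a block, since a pair holds mice of 1 age.

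Mepe in osteocyte-like cells was 6.29 and 8.62 CPM in the 7-week controls and 2.94 and 2.53 CPM in the 7-week SOXCOsxCre mice, against 40.5, 19.4, 13.7 and 22.3 CPM at 13 weeks. The ages did not overlap. The difference was 2.34 ± 0.27 (adjusted p = 0.0015) and lay between 1.98 and 2.55 without any 1 mouse. In preOB-like cells Mepe had 0 to 2 UMIs per library at 7 weeks, 5 in all, and 8 to 21 at 13 weeks, 59 in all. Over the pooled libraries that was 0.594 and 7.69 CPM, a ratio of 12.9 with an exact 95% interval from 5.25 to 41.3 that covers counting error only. Mepe passed the filter on low counts there through the 13-week libraries alone, and its fitted difference (3.86, adjusted p = 0.0014) depends on the prior count. With the 5% mitochondrial limit it did not pass (3.70, adjusted p = 0.083). In stress OB-like cells the rise was 2.23 ± 0.42 (adjusted p = 0.034), and it lost its call without any of the 7-week mice or control 13 weeks replicate 1 and was 1.39 without SOXCOsxCre 13 weeks replicate 2. It also lost it with the 5% limit (1.85, adjusted p = 0.17) and with total UMIs in place of TMM scaling (2.26, adjusted p = 0.051). Over all OB-like cells it was 2.22 ± 0.41 (adjusted p = 0.026), with the call lost without control 7 weeks replicate 1 or 2, SOXCOsxCre 7 weeks replicate 2 or control 13 weeks replicate 1 (adjusted p from 0.071 to 0.092).

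Ibsp in preOB-like cells was 2236, 3000, 3656 and 4492 CPM in the 7-week mice of both genotypes and 6286, 6556, 6375 and 11648 CPM at 13 weeks. All 13-week values were above all 7-week values, a rise of 1.28 ± 0.23 (adjusted p = 0.0077) that did not pass without integration (0.35, adjusted p = 0.81) or with the 5% limit (0.92, adjusted p = 0.17). In proliferating preOB-like cells it rose by 1.98 ± 0.28 (adjusted p = 0.012), where 0.496% of the tested genes were called. In GPC-like cells, whose level is low, summed Ibsp rose by 2.43 ± 0.37 (adjusted p = 0.0078). That call was lost without control 7 weeks replicate 1 (2.39) or replicate 2 (2.48). It was also lost with doublets kept (1.32, adjusted p = 0.095) and with the 5% limit (0.99, adjusted p = 0.053). The median GPC-like cell held 0 to 0.711 Ibsp UMIs per 10000 at 7 weeks, by mouse, and 0.658 to 0.973 at 13 weeks. The 10% of cells highest in Ibsp held 28.4 to 80.4% of it at 7 weeks and 81.1 to 93.1% at 13 weeks. In Lepr+ OP-like cells Ibsp rose by 0.82 ± 0.19 (adjusted p = 0.048), a call that was kept on leaving out SOXCOsxCre 7 weeks replicate 2 (1.0) and lost on leaving out any of the other 7 mice (0.67 to 0.91), with doublets kept (0.71) or with free RNA subtracted (0.83). Dmp1 rose in preOB-like cells, from 72.2, 85.3, 155 and 65.8 CPM at 7 weeks to 223, 314, 271 and 245 CPM at 13 weeks (1.54 ± 0.23, adjusted p = 0.0019). The ages did not overlap, and the call was lost without integration (0.76, adjusted p = 0.40) and with the 5% limit (1.19, adjusted p = 0.16). It also rose in interferon OB-like cells, by 1.13 ± 0.15 (adjusted p = 0.00085), as did Spp1 (2.28 ± 0.33, adjusted p = 0.0017; 1.74 and 0.11 with the 5% limit). Of 56 edgeR tests of whether the genotype difference itself changed with age, 0 passed, with 2 at an unadjusted p under 0.05. These tests covered more types than the counts of genotype and age tests above, blood and endothelial-like cells included. No share of all genes was set out for this contrast, so these counts carry no conclusion about the genes.

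**Figure D5:**
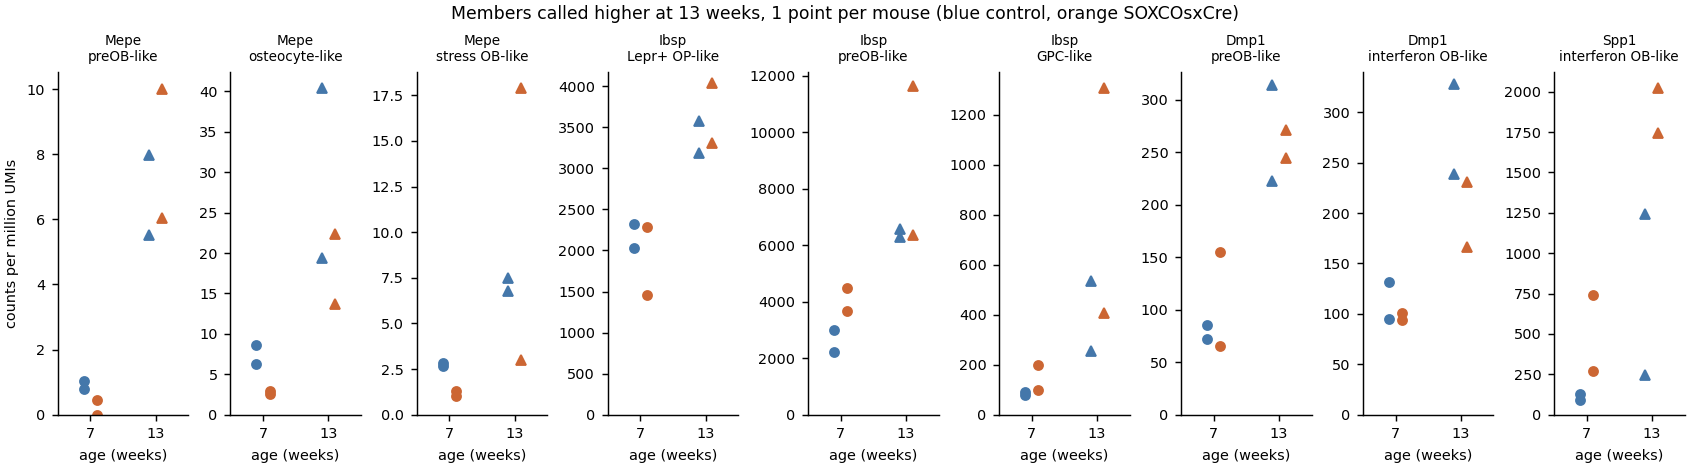
CPM per mouse at 7 and 13 weeks in the 9 pairs of a gene and a single cell type that passed the test of age (axes from 0), with blue for control and orange for SOXCOsxCre. In osteocyte-like cells Mepe lies at 2.53 to 8.62 CPM at 7 weeks and at 13.7 to 40.5 CPM at 13 weeks. Mepe in preOB-like cells passed the filter on low counts through the 13-week libraries alone.

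Few genes of the wider system of these proteins passed the test of genotype, 6 calls in all beside the 0 to 1.7% of all tested genes called by type, and 59 with the pair as a block beside 0 to 8.26%. Of the enzymes that phosphorylate, cleave or degrade them, 16 genes listed, 0 of 145 tests passed upward and 2 downward: Phex, the endopeptidase named above, in Lepr+ MSC-like cells (-1.20 ± 0.15, adjusted p = 0.011; -0.82 and 0.052 with doublets kept) and Mmp9, a gelatinase, in Lepr+ OP-like cells (-2.83 ± 0.63, adjusted p = 0.045). The Mmp9 call was kept without control 7 weeks replicate 1 or control 13 weeks replicate 2 and lost without any of the other 6 mice (adjusted p from 0.064 to 0.98), with -1.08 without control 13 weeks replicate 1. Of their receptors, 1 of 75 tests passed, Itgb5, an integrin subunit that pairs with alpha V, higher in osteocyte-like cells (1.26 ± 0.22, adjusted p = 0.0068; 0.051 without control 13 weeks replicate 1 and 0.057 without SOXCOsxCre 13 weeks replicate 1). Among the transcription factors known to regulate the family, 0 of 120 passed. Of other matrix genes 3 of 66 passed, all higher in early OB-like cells: Bglap (0.95, adjusted p = 0.022), Bglap2 (1.14, 0.0078) and Bglap3 (1.10, 0.028), osteocalcin genes that are near-identical copies and may share reads. Leaving out 1 mouse ended the Bglap call for 4 mice (adjusted p from 0.056 to 0.13: control 7 weeks replicate 2, SOXCOsxCre 7 weeks replicate 1 and replicate 1 of both genotypes at 13 weeks), the Bglap2 call for 2 (0.051 and 0.057: replicate 1 of both genotypes at 13 weeks) and the Bglap3 call for 5 (0.069 to 0.25: both 7-week controls, SOXCOsxCre 7 weeks replicate 1, control 13 weeks replicate 2 and SOXCOsxCre 13 weeks replicate 1). The medians of the lists over the tested genes lay between -0.10 and 0.22 for enzymes and between 0.15 and 0.60 for matrix genes, by type. With age Phex rose by the same test in Lepr+ MSC-like (1.23), preOB-like (1.38), early OB-like (0.81) and stress OB-like cells (0.62), and Fam20c, the kinase of secreted phosphoproteins, in preOB-like (0.94) and GPC-like cells (0.65). Mmp13, a collagenase, rose in Lepr+ OP-like (0.93) and interferon OB-like cells (2.24), and Mmp14, a membrane-bound protease, fell in early OB-like (-0.57) and hypertrophic GPC-like cells (-0.82). Of all 145 enzyme tests with age 8 passed upward and 2 downward, where 0.358 to 8.27% of all genes were called by type. Of the receptor tests 2 of 75 passed, both upward, for Itgb5 in Lepr+ OP-like (0.70) and Itgav, the alpha V integrin, in hypertrophic GPC-like cells (0.82). Among the regulators 1 of 120 passed upward and 2 downward, namely the homeobox genes Dlx5 (0.61) and Dlx3 (-1.60) in hypertrophic GPC-like cells and Msx2 in all OB-like cells pooled (-1.15). Of the other matrix genes 1 of 66 passed upward and 1 downward, Sparc (0.58) and Col1a2 (-0.87), both in hypertrophic GPC-like cells.

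Across the 17 named types, the genes whose mean log level ran most like each member differed by member. For Spp1 they were Klhl33 (Pearson r 0.875), Alpl, the phosphatase of mineralising cells (0.874), Srpx2 (0.874), Colec12 (0.859) and Ttyh2 (0.856). Ibsp was most like Hpgd (0.973), a prostaglandin dehydrogenase, Proser2 (0.927), Hebp2 (0.926), Fgfr1, a fibroblast growth factor receptor (0.92), and Bmp1, a procollagen protease (0.919). Dmp1 ran with Cadm1 (0.967), an adhesion molecule, Robo2 (0.961), Btla (0.957), Cdo1 (0.956) and Mlip (0.952). Mepe ran with Scn3a (0.982), a sodium channel, Dkk1 (0.973), a Wnt antagonist of osteocytes, Bmp3 (0.93), Btla (0.926) and Col22a1 (0.907). Among the members themselves r was 0.878 between Dmp1 and Mepe, 0.814 between Dmp1 and Ibsp, 0.698 between Spp1 and Ibsp and 0.315 between Spp1 and Mepe. These are descriptions over 17 points from the same 8 libraries, chosen from 11625 genes.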

How the data were processed

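The deposited files held whole-number UMI counts per gene and barcode, made by the authors with Cell Ranger 6.1.2 on mm10 from 10x 3′ libraries, which count ends and not transcript length, 1 library for each of 8 mice. Barcodes with 200 to 6000 genes and at most 10% mitochondrial UMIs were kept, called doublets (9.67 to 11.3% per library) were left out, libraries were integrated (Seurat 5.3.0, 2000 variable genes, 30 components, 5 anchors) and cells clustered (leidenalg 0.10.2, resolution 1.5, 47 clusters). The main resolution was set to 1.5 in place of 1 after clusters were seen, since at 1 Lepr+ OP-like and preOB-like cells merged. A type needed 3 markers at 2-fold; shallow clusters, with a median UMI count below 33.3% of that of the library (11098 cells), were kept apart. The 4 genes, Dspp and the SOXC genes took no part in clustering or naming.

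UMIs were summed per mouse and type with at least 10 cells and tested with edgeR 4.0.16 (TMM, 4 group means, 4 residual degrees of freedom); DESeq2 1.42.0 was an alternative. Stage steps used a pseudocount of 1 CPM and free RNA tests 0.01 UMIs per cell, by exact sign-flip tests over 8 mice. The scripts were tested on simulated data. The paper collected mutants and controls as sister pairs, but the labels do not say which mice were sisters. Same-numbered mice of an age were paired by their values: their deviations from group means correlated at r = 0.115 to 0.75 in 6 types. Same-numbered mice of different ages correlated too (0.174 to 0.58), and more than the 13-week pair in hypertrophic GPC-like cells. Some did so in Lepr+ MSC-like (0.303 and 0.282 against 0.245) and preOB-like cells (0.447 against 0.374). The number, which goes with depth, and the pair therefore cannot be told apart. The pairing was taken from the same data that the blocked fit tests, so a pass with the block alone is no independent support. The blocked fit leaves 2 residual degrees of freedom. The rule for named genes took the 4 genes in every type, the 5 genes most like each, and every called gene of 4 partner lists. The members and lists were chosen with earlier results of these data known.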

Additional observations from a re-analysis of the deposited data

Results flagged for a closer look

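Some clusters of low depth, left out of the comparisons above, held Spp1 or Ibsp above the level of shallow erythroid clusters, which was 0.229 to 0.875 Spp1 and 0.56 to 1.58 Ibsp UMIs per cell. A result was picked out where every mouse was above that level with a lowest ratio of 3 or more. In shallow Lepr+ MSC clusters (2071 cells) Spp1 stood at 4.90 to 14.4 UMIs per cell, median 7.28 over 8 mice, and its lowest ratio was 7. Ibsp in the same clusters stood at 2.75 to 7.04, median 4.54, with a lowest ratio of 3.13. In shallow OB clusters (2169 cells) Ibsp was 4.40 to 12.2 UMIs per cell, median 7.78, with a lowest ratio of 5.54. In shallow megakaryocyte clusters (567 cells) Ibsp was 2.14 to 35.7 UMIs per cell, median 9.55, with a lowest ratio of 3.55. Per 1000 UMIs of matrix genes Ibsp was at 8.78 to 40.9, median 15.3, in the megakaryocyte clusters, at 12.7 to 44.4, median 21.1, in the shallow OB clusters and at 67.4 to 322, median 94.7, in the shallow Lepr+ MSC clusters, beside a mean of 20.9 in OB-like cells. Spp1 in the shallow Lepr+ MSC clusters was at 83.1 to 603, median 194, on that scale, beside a mean of 1.32 in OB-like cells. The part of free osteoblast RNA in these values was not tested.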

How the results depend on the processing

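The higher Spp1 of osteocyte-like cells in SOXCOsxCre mice kept its direction and call under every alternative run, and so did the Mepe rise with age in osteocyte-like cells. The number of genotype calls, 3 of 40, became 1 under DESeq2, 18 with no filter on low counts, 13 with the replicate block and 1 with a 5% mitochondrial limit, and 2 to 6 on leaving out 1 mouse (6 without SOXCOsxCre 7 weeks replicate 1, 5 without SOXCOsxCre 13 weeks replicate 2). Spp1 in interferon OB-like cells lost its call under DESeq2 (1.88) and the 5% limit (0.57), and Mepe in early OB-like cells under DESeq2 (-1.93), the 5% limit (-1.78) and on leaving out 1 mouse (-2.92 to -1.49). The age calls, 10, became 17 under DESeq2, 27 with no filter, 20 with the replicate number as a term, 5 with the 5% limit and 8 to 16 on leaving out 1 mouse (16 without SOXCOsxCre 13 weeks replicate 1). Ibsp in GPC-like cells lost its age call with doublets kept (1.32), the 5% limit (0.99) and on leaving out 1 mouse (1.89 to 2.74), and Mepe in preOB-like cells with the 5% limit (3.70). Partner calls, 6, became 39 with no filter, 59 with the block, 31 with the number term, 2 at resolution 1, 3 without integration, 3 with the 5% limit and 2 to 9 on leaving out 1 mouse (3 without control 7 weeks replicate 2, 2 without SOXCOsxCre 13 weeks replicate 1). Outside the main fit and the block, these counts of calls stand without the share of all genes called. The number of tests can also differ by setting. The counts therefore describe the settings and are no result about the 4 genes or their partners. The stage steps passing, 19 of 24, became 15 with cells thinned to 2000 UMIs, 20 with doublets kept, 13 of 16 with the 5% limit, 8 of 12 at resolution 1 and 16 to 19 on leaving out 1 mouse. The block changed no call of the 4 genes other than those given in the report.

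Most directions that reversed belonged to small steps or to background levels, and the exceptions were the Spp1 and Dmp1 steps to hypertrophic GPC-like cells (4.63 and 1.74) under the 5% limit and the Ibsp step from preOB-like to early OB-like cells (0.68) without integration. From Lepr+ MSC-like to Lepr+ OP-like cells Mepe was -0.0098 with a pseudocount of 5 CPM, -0.27 on cells thinned to 2000 UMIs, -0.091 with free RNA subtracted, -0.50 with doublets kept and -0.064 to 0.37 on leaving out 1 mouse, Dmp1 was -0.37 with doublets kept and Ibsp 0.41 at resolution 1. From preOB-like to early OB-like cells Dmp1 was 0.40 thinned, 0.052 with free RNA subtracted, 0.17 with doublets kept and -0.11 to 0.12 on leaving out 1 mouse, and Ibsp was -0.072 without integration. With the 5% limit the step to hypertrophic GPC-like cells was -0.47 for Spp1, -1.34 for Dmp1 and -0.22 for Mepe, the Spp1-high cluster then being named GPC-like. Over erythroid-like cells Dmp1 was 1.02 in Lepr+ MSC-like and 1.25 in GPC-like cells with doublets kept, 1.48 in GPC-like and -0.0062 in hypertrophic GPC-like cells with the 5% limit, and Mepe in Lepr+ MSC-like cells was -0.016 to 0.30 on leaving out 1 mouse. Otherwise the cause of a change was not tested. Age could not be fitted with the replicate block, which was not run for it.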
